A study of Homo sapiens with 20 samples.

Results

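The surface peptidases are enzymes that cut peptides, or whole proteins, at the outer face of the cell, and 8 of their genes were followed here among the 18305 genes of the expression table. The members are given by name and were chosen with earlier results of these data known. They are MME (the peptidase CD10, gene 4311), ANPEP (CD13, gene 290), DPP4 (CD26, gene 1803) and GGT1 (gamma-glutamyl transferase 1, gene 2678). The others are ECE1 (gene 1889), LNPEP (gene 4012), ADAM10 (gene 102) and ADAM17 (gene 6868), the numbers being the gene identifiers of the table. RNA was sequenced from 20 libraries in 10 groups of 2 biological replicates. AMO1, L363 and RPMI-8226 (RPMI) are multiple myeloma cell lines, that is, malignant plasma cells, and ARH-77 (ARH77) is a B-lymphoblastoid line. The wild-type (WT) cells are the parental lines. Bortezomib-resistant (BtzR) cells, made from all 4 lines, were kept in 90 nM bortezomib, and carfilzomib-resistant (CfzR) cells, made from AMO1 and from L363, in 90 nM carfilzomib. Both drugs inhibit the proteasome, the complex that degrades unwanted proteins. All groups shared the same RPMI-1640 medium, and nothing in the sources used here says whether a resistant line is a single clone or is sampled while drug is present. The values are FPKM, fragments scaled to transcript length and to the mapped total of the library, so that levels of different genes can be set side by side per length.

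Cell surface peptidases switch off, trim or release the signals around a cell. CD10, CD13 and CD26 take short signalling peptides and chemokines apart, the endothelin-converting enzyme ECE-1 makes the vasoconstrictor endothelin from its precursor, and GGT1 starts the breakdown of extracellular glutathione so that its amino acids can be taken back up. ADAM10 and ADAM17 are sheddases: they clip the outer part of membrane proteins such as Notch, tumour necrosis factor and cytokine receptors close to the membrane. In the B lineage CD10 is the classical marker of precursor B cells and of germinal centre B cells, and it is absent from most normal plasma cells.

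Summed FPKM of a library lay between 457317 and 494850, and 10455 to 11023 genes reached 1 FPKM. No read counts were used here, so the depth is unknown. Pearson's r between the 2 replicates of a group, over the tested genes, was 0.986 to 0.998. The 2 libraries labelled AMO1 CfzR stood apart from their line. Their r was 0.986 to 0.992 with the 6 L363 libraries, against 0.985 to 0.989 between L363 libraries of different groups, and 0.878 to 0.883 with the 4 other AMO1 libraries. They are called AMO1 CfzR here as labelled, and each of their differences from AMO1 WT is given beside the difference from L363 WT. Of 10 plasma cell marker genes, 8 to 10 reached 1 FPKM in each group, and all 8 mature B cell markers did so in the ARH77 groups against at most 3 in any myeloma group. The 10 plasma cell genes summed to 380 to 386 FPKM in ARH77 WT and 356 to 376 in ARH77 BtzR, against at least 1674 in every myeloma library.

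RefSeq lists a start site for all 8 members on GRCh38.p14, and they lie on 6 chromosomes. Sequence upstream of the start is shown for 3 members that differ in it and in level: MME, the member with the widest range between groups, GGT1, the member with the highest level in most groups, and DPP4, which is close to 0 in every group. Each run is the 250 bases before the first listed start, 5′ to 3′ on the gene's own strand, with every CG dinucleotide in capitals. MME lies on the plus strand at chr3:155079422-155079671, GGT1 on the plus strand at chr22:24583500-24583749 and DPP4 on the minus strand at chr2:162074216-162074465.
MME: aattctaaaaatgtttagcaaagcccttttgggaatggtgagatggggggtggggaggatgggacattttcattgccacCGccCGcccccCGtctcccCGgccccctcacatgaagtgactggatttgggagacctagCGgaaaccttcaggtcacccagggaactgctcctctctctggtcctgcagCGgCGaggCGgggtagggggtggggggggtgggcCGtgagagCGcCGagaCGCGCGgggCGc
GGT1: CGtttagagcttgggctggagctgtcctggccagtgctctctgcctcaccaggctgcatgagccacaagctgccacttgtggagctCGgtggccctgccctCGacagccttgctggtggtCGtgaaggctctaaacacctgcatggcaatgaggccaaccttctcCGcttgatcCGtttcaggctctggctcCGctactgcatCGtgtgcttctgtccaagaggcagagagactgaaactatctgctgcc
DPP4: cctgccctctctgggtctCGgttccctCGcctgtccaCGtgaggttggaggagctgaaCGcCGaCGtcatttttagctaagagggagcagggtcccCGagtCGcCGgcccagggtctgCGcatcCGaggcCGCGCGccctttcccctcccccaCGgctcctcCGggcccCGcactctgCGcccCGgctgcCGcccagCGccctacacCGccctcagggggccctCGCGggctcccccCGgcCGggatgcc
The MME window holds 15 CG dinucleotides, the GGT1 window 8 and the DPP4 window 26, against a median of 11 over 35116 RefSeq promoter windows of the same length. The other 5 members have 24 to 31 in the window of their first start. The GC box GGGCGG, searched on both strands, is found in 42.6% of all windows, in the MME and DPP4 windows and not in the GGT1 window, while TATAAA is found in 10.7% of all windows and in none of these 3. The start used in these cells was not measured, and RefSeq lists 4 starts for MME and 2 for GGT1.

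Of the 8 members, GGT1, ECE1, LNPEP, ADAM10 and ADAM17 were above 1 FPKM in all 20 libraries, MME was so in 8 libraries, and ANPEP and DPP4 in none. Levels in FPKM ran from GGT1, with a median of 50.4 over libraries, through ADAM10 at 24.8, ECE1 at 13.2, ADAM17 at 10.7 and LNPEP at 8.50, to MME at 0.72. Group means of the 5 genes present throughout differed between the highest and the lowest group by 2.54-fold for ADAM17, 2.92-fold for GGT1, 2.98-fold for ECE1, 3.55-fold for ADAM10 and 3.80-fold for LNPEP. MME spanned 0.08 to 22.5 FPKM in its group means.

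**Figure D1:**
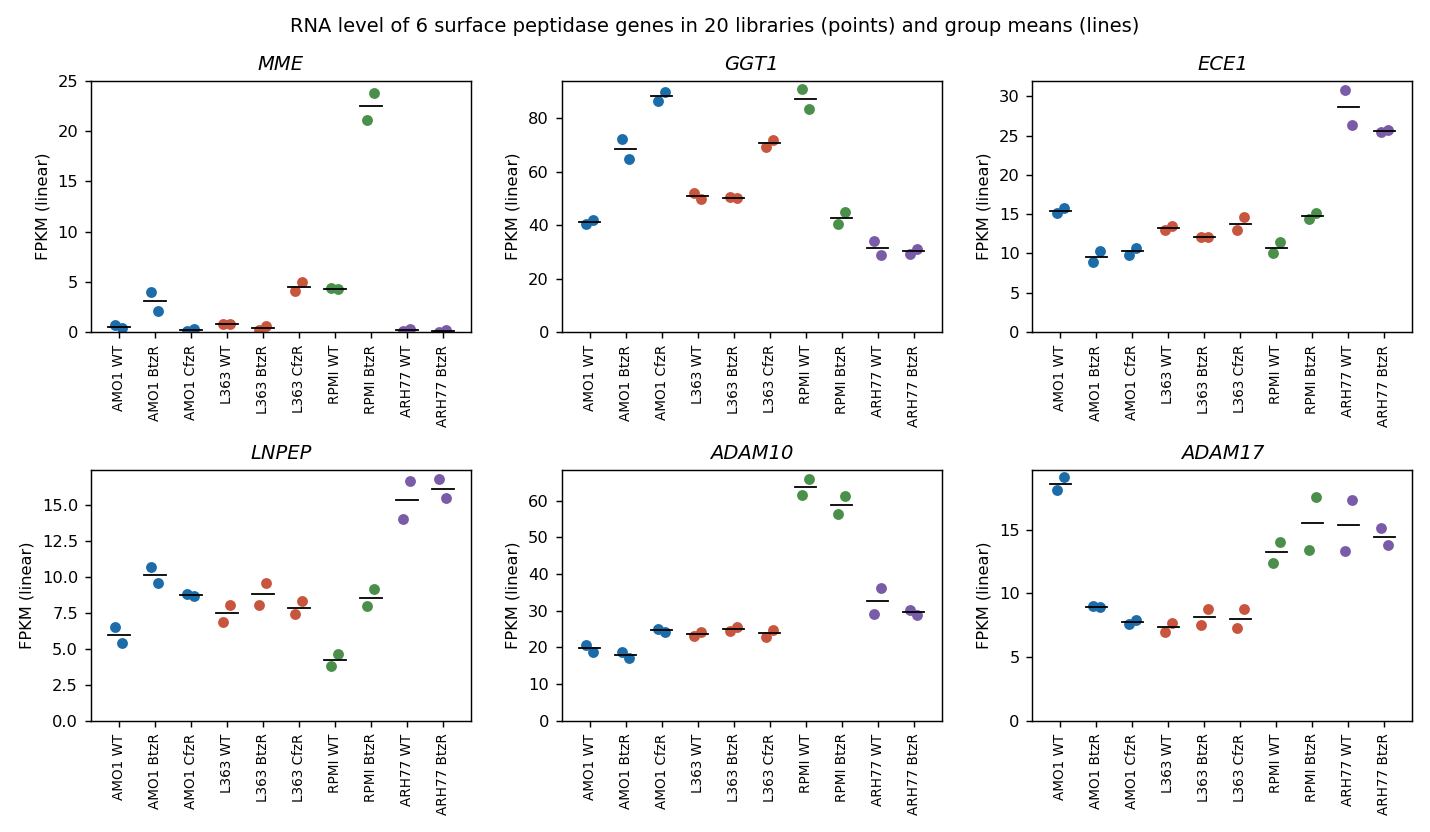
FPKM (linear vertical axis) of the 6 members that reach 1 FPKM, in each of the 20 libraries (points, coloured by line) with the group mean (line); the groups are along the horizontal axis. MME sits highest in RPMI BtzR at 21.2 and 23.8 FPKM, while ECE1 and LNPEP sit highest in the ARH77 groups.

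MME, which encodes the neutral endopeptidase CD10, was higher in bortezomib-resistant than in WT cells of AMO1 and RPMI and higher in the carfilzomib-resistant cells of L363, and it was not higher in the other 3 resistant groups. Because the name of the set gives MME and GGT1, and either may have been picked from these comparisons, their differences are given as a description with no test. In RPMI WT the 2 libraries read 4.42 and 4.25 FPKM, and in RPMI BtzR 21.2 and 23.8. That is the highest level of any group, 5.19 times the WT mean and a difference of 2.14 ± 0.19 (SE) on the log2(FPKM + 1) scale. L363 WT read 0.76 in each library, L363 BtzR 0.20 and 0.56, and L363 CfzR 4.05 and 5. L363 CfzR thus lay above its WT with no overlap, at a log2 difference of 1.65 ± 0.19. The L363 BtzR difference was -0.36 ± 0.19, with every library of both groups below 1 FPKM, where a few fragments decide a value.

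In AMO1 the WT libraries read 0.68 and 0.42 FPKM of MME, the BtzR libraries 4 and 2.12, and the libraries labelled AMO1 CfzR 0.10 and 0.29. The BtzR libraries lay above the WT ones, by 1.35 ± 0.19 on the log2(FPKM + 1) scale, and differed from each other more than any other pair of MME replicates on that scale. The libraries labelled AMO1 CfzR lay below AMO1 WT, by -0.37 ± 0.19, and below L363 WT, by -0.56 ± 0.19. They also lay below the L363 CfzR libraries, the group with the same drug in the line they resemble. ARH77 read 0.14 and 0.27 in WT and 0 and 0.16 in BtzR, which overlapped each other and the libraries labelled AMO1 CfzR.

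In the order of group means, RPMI BtzR stood clear of L363 CfzR and RPMI WT, which overlapped each other at 4.53 and 4.34 FPKM, and AMO1 BtzR followed at 3.06. The other 6 groups had means below 1 FPKM, where a few fragments decide a value. A pseudocount of 1 FPKM shrinks differences at such levels, so the ratios of means, 5.56 for AMO1 BtzR and 5.95 for L363 CfzR, exceed what their log2 differences convey. Bulk RNA cannot separate more MME RNA per cell from more cells that carry it.

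Other genes of CD10-positive precursor and germinal centre B cells moved both with and against MME. In RPMI BtzR, where MME was higher, RAG1 and RAG2, the recombinase genes of precursor lymphocytes, read 1.51 and 1.53 and 1.29 and 0.81 FPKM, against 0.53 and 0.78 and 0 and 0 in RPMI WT. The transcription factor gene MYBL1 also lay above WT there, at 8.44 and 7.04 against 4.01 and 3.83. The surrogate light chain genes went the other way: VPREB1 read 52.3 and 51.7 in RPMI WT and 0 and 0.09 in RPMI BtzR, and IGLL1 1630 and 1391 in WT and 689 and 537 in BtzR. IGLL1 makes up most of the sum of the 9 listed genes, which was 1451 to 1692 in RPMI WT and 555 to 707 in RPMI BtzR. In AMO1 BtzR MYBL1 lay above WT, at 4.79 and 3.81 against 1.59 and 0.96, RAG1 below it, at 0.07 and 0.16 against 0.81 and 1.10, and the sum was 19.3 to 20.4 against 14.6 to 17.2. In L363 CfzR the sum was 220 to 224 against 229 to 286 in L363 WT, and VPREB1 was listed at 0 in all libraries of both lines.

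Plasma cell and mature B cell markers differed as well in groups where MME was higher. The 10 plasma cell genes summed to 3475 to 3756 FPKM in RPMI WT and 1674 to 1959 in RPMI BtzR, to 6972 to 8421 in AMO1 WT and 4810 to 5344 in AMO1 BtzR, and to 7043 to 9274 in L363 WT and 5526 to 6049 in L363 CfzR. The sum was also lower in L363 BtzR, at 5928 to 6374, where MME was not higher. The 8 mature B cell markers summed to 12.6 to 17.2 in AMO1 WT and to 98.8 to 101 in AMO1 BtzR, where only CD79A and CIITA reached 1 FPKM. In RPMI those 8 genes summed to 21.5 to 21.6 in WT and to 1.08 to 1.47 in BtzR. The part of these genes in the MME values was not tested.

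ANPEP and DPP4, the aminopeptidase CD13 and the dipeptidyl peptidase CD26 that clips chemokines such as CXCL12, stayed under 0.5 FPKM in all libraries and were not tested in the fit. ANPEP lay between 0 and 0.49 FPKM, was listed at 0 in 5 libraries and had its highest group mean, 0.44, in ARH77 BtzR. DPP4 lay between 0 and 0.42 and was listed at 0 in 12 libraries. All DPP4 values above 0 came from RPMI and AMO1 libraries: 0.35 and 0.29 in RPMI WT, 0.40 and 0.42 in RPMI BtzR, 0.01 and 0.04 in AMO1 WT, and 0.08 and 0.05 in AMO1 BtzR. At these levels a few fragments decide a value, and an order between groups was not read from them.

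LNPEP, the insulin-regulated aminopeptidase IRAP that cycles between endosomes and the surface and cleaves oxytocin and vasopressin, was higher in the resistant cells of AMO1 and RPMI and showed no detectable difference in L363 and ARH77. RPMI WT read 3.83 and 4.67 FPKM and RPMI BtzR 8.01 and 9.14. AMO1 WT read 6.51 and 5.40 and AMO1 BtzR 10.7 and 9.57. In both lines the resistant libraries lay above the WT ones. The log2 differences were 0.87 ± 0.13 in RPMI (limma, adjusted p = 4.15e-05) and 0.68 ± 0.13 in AMO1 (limma, adjusted p = 4.24e-04). Both passed the test and stayed short of a difference of 1 on the log2(FPKM + 1) scale. Without the pseudocount of 1, the ratios of mean FPKM were 2.02 in RPMI and 1.71 in AMO1. The libraries labelled AMO1 CfzR, at 8.85 and 8.67, differed from AMO1 WT by 0.49 ± 0.13 (limma, adjusted p = 0.00391, and 0.0528 without AMO1 WT replicate 2) and from L363 WT by 0.21 ± 0.13 (limma, adjusted p = 0.505). The L363 groups read 6.90 and 8.06 in WT, 8.07 and 9.62 in BtzR and 7.43 and 8.32 in CfzR. ARH77 held the most LNPEP, with 14.0 and 16.7 in WT and 16.8 and 15.5 in BtzR. Averaged over the 4 lines, the BtzR difference was 0.46 ± 0.06 (limma, adjusted p = 2.94e-05), with a difference above 0 in each line.

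ECE1 moved in opposite directions in AMO1 and RPMI. AMO1 WT read 15.1 and 15.8 FPKM, AMO1 BtzR 8.91 and 10.3, and the libraries labelled AMO1 CfzR 9.86 and 10.8. RPMI WT read 10.0 and 11.5 and RPMI BtzR 14.4 and 15.2. The resistant libraries lay below WT in AMO1 and above WT in RPMI with no overlap, and the RPMI BtzR level matched the AMO1 WT level, the 2 groups overlapping. The log2 differences were -0.64 ± 0.10 in AMO1 BtzR (limma, adjusted p = 8.37e-05), -0.54 ± 0.10 in AMO1 CfzR (limma, adjusted p = 2.43e-04) and 0.43 ± 0.10 in RPMI BtzR (limma, adjusted p = 0.00181). Against L363 WT, which read 12.95 and 13.51, the AMO1 CfzR difference was -0.33 ± 0.10 (limma, adjusted p = 0.0583, and 0.0406 with the replicate number as a block). L363 BtzR read 12.1 and 12.1, and L363 CfzR 12.9 and 14.6, and neither passed the test against L363 WT. In ARH77 the WT libraries read 30.8 and 26.3 and the BtzR libraries 25.4 and 25.7, both groups above every myeloma library.

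GGT1, whose product releases glutamate from glutathione and converts leukotriene C4 to D4, had its highest level in RPMI WT and AMO1 CfzR and was lower in the resistant cells of RPMI while it was higher in those of AMO1. RPMI WT read 90.9 and 83.5 FPKM and RPMI BtzR 40.6 and 44.9. AMO1 WT read 40.6 and 42.0, AMO1 BtzR 72.3 and 64.9, and the libraries labelled AMO1 CfzR 86.7 and 90.1. The RPMI BtzR libraries overlapped AMO1 WT, AMO1 BtzR lay between AMO1 WT and RPMI WT with no overlap, and the libraries labelled AMO1 CfzR, which resemble L363, overlapped RPMI WT. The log2 differences were -1.01 ± 0.09 in RPMI BtzR, 0.72 ± 0.09 in AMO1 BtzR and 1.08 ± 0.09 in AMO1 CfzR. Set against L363 WT, AMO1 CfzR was higher by 0.78 ± 0.09.

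In L363 the drugs were followed by different GGT1 levels. WT read 52.2 and 50.0 FPKM, BtzR 50.7 and 50.1, and CfzR 69.5 and 72.1. BtzR overlapped WT, at a log2 difference of -0.02 ± 0.09, and CfzR lay above both, at 0.46 ± 0.09 from WT. In ARH77 WT read 33.96 and 28.68 and BtzR 29.2 and 31.3, the lowest of all groups, and the groups overlapped.

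GGT1 has near-identical relatives and partial copies in the genome, and reads could be split between them in the counting. Of 10 such names, 4 are rows of the table, and none of the 4 exceeded 7.10 FPKM in any library, against at least 28.7 for GGT1. GGTLC3, a light chain copy, read 0.22 and 0 FPKM in AMO1 WT, 4.98 and 3.61 in AMO1 BtzR and 6.59 and 5.74 in AMO1 CfzR. GGTLC2 read 0.69 and 0.53 in AMO1 WT and 5.23 and 4.6 in AMO1 BtzR, and GGT2 read 0.39 and 0.79 and then 1.95 and 2.99. All 3 tested copies were called higher in AMO1 BtzR, where 4.61% of all tested genes were, and GGT1 itself was higher there. In L363 CfzR, where GGT1 lay above L363 WT, none of the 3 was called. GGTLC3 read 3.58 and 3.96 in L363 CfzR, below 5.24 and 4.56 in L363 WT. GGTLC2 read 3.76 and 6.67 against 6.6 and 7.1 in L363 WT, and GGT2 3.41 and 3.44 against 3.17 and 3.83, both overlapping WT. In RPMI BtzR none of the 3 was called by limma and 1 of them had an unadjusted p under 0.05. RPMI WT, with as much GGT1 as AMO1 CfzR, had GGTLC3 at 0 in both libraries, and L363 WT, with less GGT1, had 5.24 and 4.56. How far shared reads add to the GGT1 values was not tested.

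**Figure D2:**
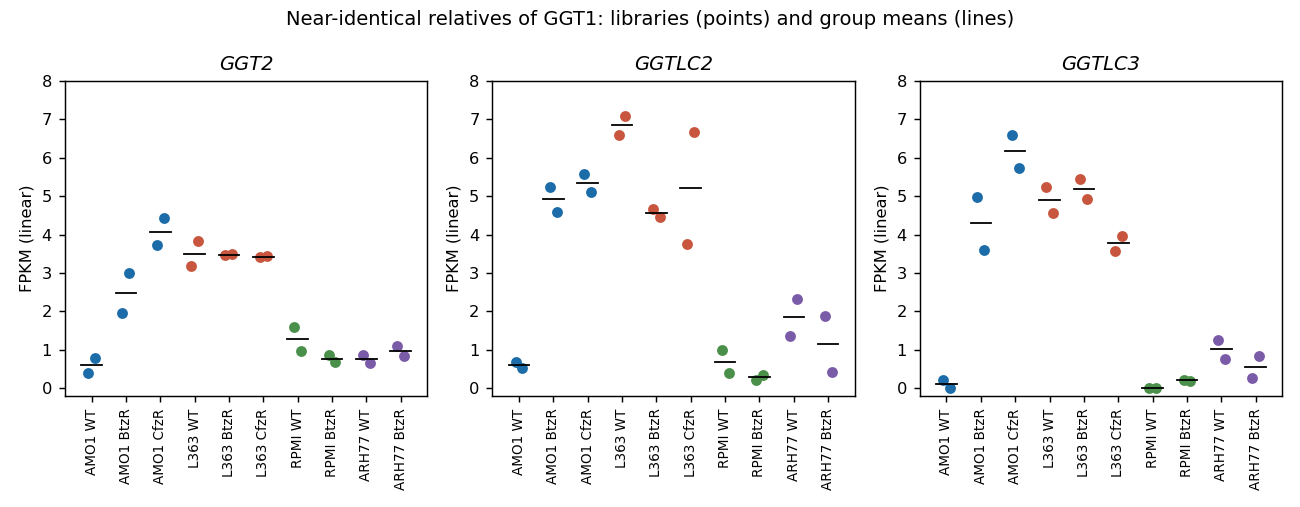
FPKM (linear vertical axis) of GGT2, GGTLC2 and GGTLC3, near-identical relatives of GGT1, in 20 libraries (points, coloured by line) with the group mean (line). The AMO1 BtzR, AMO1 CfzR and L363 groups stand above the AMO1 WT and RPMI groups for GGTLC2 and GGTLC3.

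ADAM17, the sheddase of tumour necrosis factor, was lower in resistant AMO1 cells, and no difference was detected in the other lines. AMO1 WT read 18.1 and 19.1 FPKM, AMO1 BtzR 9.03 and 8.89, and the libraries labelled AMO1 CfzR 7.56 and 7.88. AMO1 WT was the highest group of all 10, and both resistant groups lay clear below it. The BtzR difference was -0.98 ± 0.14 (limma, adjusted p = 3.63e-05), just outside the fold threshold of 1 on the log2 scale, and the CfzR difference -1.17 ± 0.14 (limma, adjusted p = 3.61e-06), inside it. Against L363 WT, whose libraries read 6.97 and 7.69, the same CfzR libraries overlapped and differed by 0.07 ± 0.14 (limma, adjusted p = 0.955), so the call holds only with AMO1 WT as the reference. L363 BtzR read 7.55 and 8.79 and L363 CfzR 7.30 and 8.75. RPMI WT read 12.4 and 14.0 and RPMI BtzR 13.4 and 17.6, which overlapped. ARH77 read 13.3 and 17.3 in WT and 15.1 and 13.8 in BtzR.

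ADAM10, the main sheddase of Notch and of amyloid precursor protein, differed mainly between lines. It read 61.6 and 66.0 FPKM in RPMI WT and 56.3 and 61.1 in RPMI BtzR, and 17.1 to 36.2 in every other library. AMO1 WT read 20.7 and 18.7, AMO1 BtzR 18.8 and 17.1, and the libraries labelled AMO1 CfzR 24.95 and 24.24. The last of these differed from AMO1 WT by 0.31 ± 0.10 (limma, adjusted p = 0.0143) and from L363 WT, at 23.2 and 24.3, by 0.05 ± 0.10 (limma, adjusted p = 0.954). The difference from AMO1 WT no longer passed with libraries rescaled to the same sum (limma, adjusted p = 0.0581), without AMO1 CfzR replicate 1 (0.0746) or without AMO1 WT replicate 2 (0.114). Bortezomib resistance gave differences of -0.13 to 0.07 in the 4 lines, and the limma test of a difference between lines in that effect was not passed (adjusted p = 0.443). For the other 3 tested with this interaction test, the adjusted p was 9.89e-05 for ECE1, 2.66e-04 for ADAM17 and 0.00322 for LNPEP, where 71.1% of all tested genes passed. ADAM10 was among the tested genes that did not pass, and with 4 members set beside that share this is not read as a trait of ADAM10.

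Between the parental lines ECE1, LNPEP, ADAM10 and ADAM17 all passed the limma F test over the 4 WT groups, as did 92.6% of all genes. ARH77 WT differed from the mean of the 3 myeloma WT groups by 1.27 ± 0.10 for LNPEP (limma, adjusted p = 3.71e-08) and by 1.08 ± 0.08 for ECE1 (limma, adjusted p = 1.28e-08), both higher in ARH77. ADAM17 was higher there by 0.29 ± 0.11 (limma, adjusted p = 0.0283) and ADAM10 by 0.05 ± 0.08 (limma, adjusted p = 0.550). MME and GGT1 were lower there, by -1.02 ± 0.15 and -0.85 ± 0.07. Of ECE1, LNPEP, ADAM10 and ADAM17, 2 were past both thresholds, an adjusted p under 0.05 and a log2 difference of 1, where 22.3% of all tested genes were.

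A gene is called when the limma adjusted p is under 0.05 and the log2 difference at least 1 in size. Members are counted here over the 4 whose test is given, ECE1, LNPEP, ADAM10 and ADAM17, and MME and GGT1 stay out of the counts. The shares of all genes are shares of calls. No such share is given for an unadjusted p under 0.05, so counts by that measure are not read as a result. In AMO1 BtzR none of the 4 was called, where 4.61% of all 13089 tested genes were called higher and 4.57% lower, and 3 of the 4 had an unadjusted p under 0.05. In AMO1 CfzR ADAM17 was called lower, with backgrounds of 7.88% higher and 9.21% lower, and all 4 had an unadjusted p under 0.05. In RPMI BtzR none of the 4 was called, with backgrounds of 5.91% and 7.92%, and 2 had an unadjusted p under 0.05.

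None of the 4 was called in L363 BtzR (1.02% of genes higher, 1.05% lower), in L363 CfzR (1.11% higher, 0.825% lower) or in ARH77 BtzR (0.955% higher, 0.649% lower), and in each of these limma gave 0 of the 4 an unadjusted p under 0.05. Between the 2 drugs, L363 CfzR against L363 BtzR, the count was also 0 by either measure, where 1.47% of genes were called. AMO1 CfzR against L363 WT called none of the 4, where 1.66% of genes were called, and 1 of the 4 had an unadjusted p under 0.05. Averaged over the 4 lines, bortezomib resistance called none of the 4, where 1.7% of genes were called, and 3 had an unadjusted p under 0.05. As a description, 3 of the 6 members in the fit, MME and GGT1 included, had a log2 difference above 0 in AMO1 BtzR, 3 in AMO1 CfzR, 3 in L363 BtzR, 6 in L363 CfzR, 4 in RPMI BtzR and 1 in ARH77 BtzR. No share of all genes above 0 is given, so these counts are not read as a result. In L363 CfzR, ECE1, LNPEP, ADAM10 and ADAM17 differed by 0.0013 to 0.11. Each of them lay below 0 in a fit with a library left out. The BtzR and CfzR comparisons of a line share its WT libraries.

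**Figure D3:**
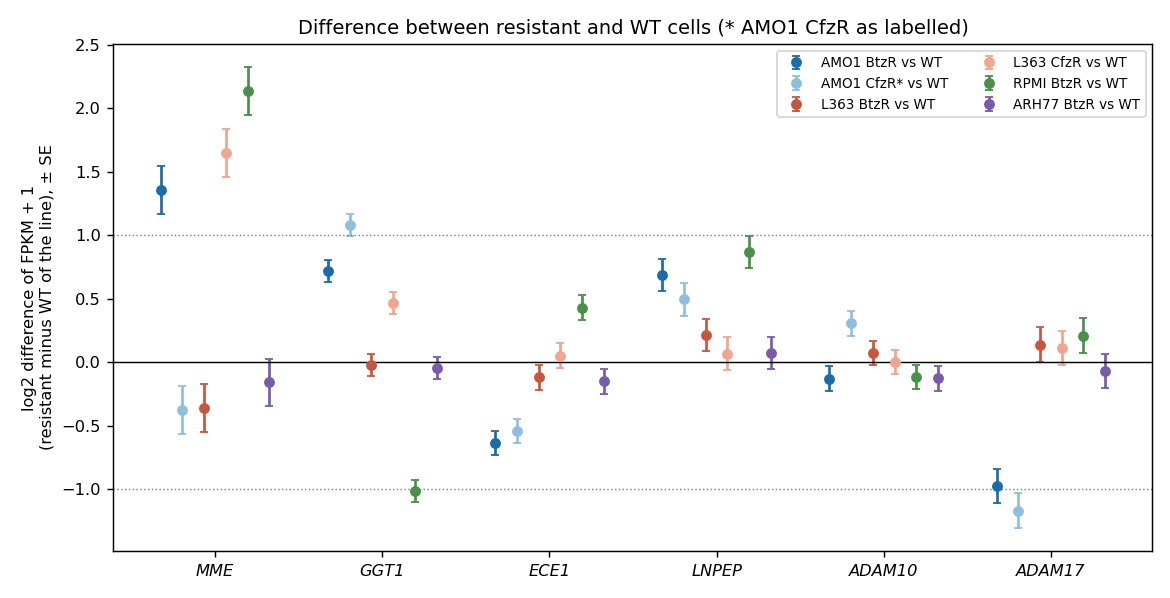
Log2 difference of FPKM + 1 between resistant and WT cells of the same line, ± SE of the limma fit, for 6 members (horizontal axis) and 6 comparisons (colours); dotted lines mark a difference of 1 in either direction. ECE1 and GGT1 have AMO1 BtzR and RPMI BtzR on opposite sides of 0, while LNPEP has both above 0 and ADAM10 lies near 0.

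The counts of the related gene lists are to be read beside the shares of all tested genes called higher and lower, which were 4.61% and 4.57% in AMO1 BtzR, 7.88% and 9.21% in AMO1 CfzR, 5.91% and 7.92% in RPMI BtzR, and 0.649% to 1.11% in the comparisons of L363 and ARH77. For the list counts with an unadjusted p under 0.05 no share of all genes is given, and they are not read as a result. Partners and inhibitors of the ADAM proteases include the TspanC8 tetraspanins and iRhoms, which bring them to the surface, and the TIMPs, which block them. Of 12 tested, 1 was called higher and 1 lower in AMO1 BtzR, 3 and 1 in RPMI BtzR, 1 and 0 in L363 CfzR, 1 and 0 in ARH77 BtzR, 2 and 2 in AMO1 CfzR, and 0 in L363 BtzR, where 4 had an unadjusted p under 0.05. TIMP1, a secreted metalloprotease inhibitor, read 6.05 and 4.87 FPKM in RPMI WT and 83.6 and 61.1 in RPMI BtzR, a log2 difference of 3.49 ± 0.17 (limma, adjusted p = 2.63e-10). TIMP1 also rose in L363 CfzR, from 25.6 and 24.3 to 79.1 and 64.8. TSPAN5, a TspanC8 partner of ADAM10, fell in RPMI BtzR from 9.24 and 9.62 to 0.43 and 0.76, a difference of -2.72 ± 0.12 (limma, adjusted p = 5.96e-11), while ADAM10 itself differed there by -0.12. In AMO1 BtzR, where ADAM17 was lower, FRMD8, which stabilises the iRhom and ADAM17 complex, fell from 7.97 and 7.42 to 3.19 and 3.31. TSPAN15, another TspanC8 partner of ADAM10, rose in AMO1 BtzR and in ARH77 BtzR, by 1.08 ± 0.13 in each.

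Genes of membrane proteins that ADAM10 or ADAM17 can shed gave calls in both directions. Of 19 tested, 1 was called higher and 5 lower in AMO1 BtzR (4.61% and 4.57% of all genes), 2 and 7 in AMO1 CfzR (7.88% and 9.21%), 2 and 4 in RPMI BtzR (5.91% and 7.92%), 1 and 0 in L363 CfzR and likewise in ARH77 BtzR, and 0 and 2 in L363 BtzR. IL6R, the interleukin-6 receptor that ADAM17 releases in soluble form, fell in AMO1 BtzR from 24.0 and 21.0 FPKM to 2.88 and 3, and rose in RPMI BtzR from 15.1 and 17.5 to 35.7 and 51.2. FCER2, the low affinity IgE receptor CD23 and an ADAM10 substrate, fell in RPMI BtzR from 11.4 and 11.5 to 0.30 and 0.43, and rose in ARH77 BtzR from 62.0 and 46.5 to 127 and 100.4. L1CAM, an adhesion molecule, rose in AMO1 BtzR from 0.52 and 0.73 to 3.40 and 3.65. TNFRSF1B, a tumour necrosis factor receptor, fell in L363 BtzR from 10.7 and 11.9 to 1.48 and 1.65. APP, the amyloid precursor, rose in L363 CfzR from 0.03 in each WT library to 3.34 and 4.02. None of 6 gamma-secretase subunits, which cut the stubs left by ADAM10, was called in any comparison except PSEN2, higher in AMO1 CfzR. In the other 5 comparisons 1 to 5 of these subunits had an unadjusted p under 0.05.

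Beside the same shares of all genes, among 17 other tested surface and secretory peptidases, the called counts were 0 in AMO1 BtzR, where 8 had an unadjusted p under 0.05, 2 higher in AMO1 CfzR, 1 lower in L363 BtzR, 1 higher in L363 CfzR, 2 higher and 3 lower in RPMI BtzR, and 1 higher in ARH77 BtzR. BACE1, the beta-secretase, rose in RPMI BtzR from 1.09 and 1.55 FPKM to 4.66 and 4.21, while ADAM19 fell there from 4.65 and 5.34 to 0.02 and 0.06. ADAM8 fell in L363 BtzR from 12.6 and 13.7 to 5.41 and 6.01. ADAM28 rose in ARH77 BtzR from 1.02 and 1.94 to 4.03 and 4.52. All of these passed the limma test with adjusted p of 0.00115 or less.

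GGT1 works in the gamma-glutamyl cycle and in leukotriene synthesis. Of 14 tested genes of these pathways, 0 were called higher and 1 lower in AMO1 BtzR, 1 and 2 in AMO1 CfzR, 1 and 0 in L363 CfzR, 1 and 1 in RPMI BtzR, and none in the BtzR cells of L363 and ARH77, where 4 and 8 had an unadjusted p under 0.05. ALOX5AP, which presents arachidonic acid to 5-lipoxygenase for leukotriene synthesis, read 55.1 and 101 FPKM in AMO1 WT and 14.4 and 7.41 in AMO1 BtzR, and 36.9 and 27.5 in RPMI WT and 0.13 and 0.06 in RPMI BtzR. It thus fell in both lines, by -2.73 ± 0.26 (limma, adjusted p = 8.59e-07) and -4.91 ± 0.26 (limma, adjusted p = 5.81e-10), while GGT1 was higher in resistant AMO1 and lower in resistant RPMI. GGT7, a distant relative of GGT1, rose in L363 CfzR from 4.36 and 3.84 to 8.86 and 10.99. GGT7 also lay above WT in L363 BtzR, at 7.92 and 7.01, and in ARH77 BtzR, at 2.71 and 3.19 against 1.69 and 1.38, where GGT1 overlapped WT, and below WT in RPMI BtzR, at 2.57 and 2.71 against 5.94 and 5.14. DPEP1, the dipeptidase that acts after GGT1, rose in RPMI BtzR from 0.03 and 0.07 to 1.29 and 1.13.

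**Figure D4:**
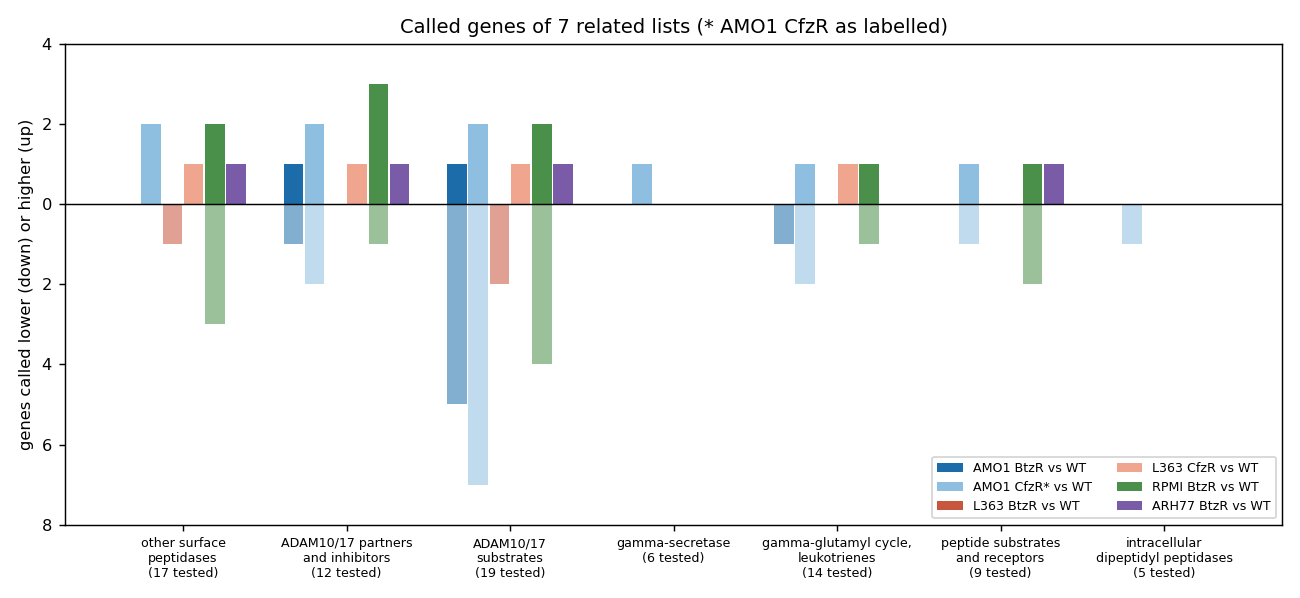
Number of genes called higher (bars upward) and lower (bars downward, paler) in 7 related gene lists (horizontal axis, with the genes tested in each) in 6 comparisons of resistant with WT cells (colours). The substrates of ADAM10 and ADAM17 reach 5 called lower in AMO1 BtzR and 7 in AMO1 CfzR.

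Peptides and receptors on which CD10, CD13, CD26, ECE-1 and IRAP act were mostly low: 9 of the 23 listed in the table were tested. CXCL12, a chemokine that CD26 inactivates, rose in RPMI BtzR from 8.40 and 10.6 FPKM to 68.8 and 37.9, a difference of 2.32 ± 0.18 (limma, adjusted p = 5.07e-08). DPP4 read 0.40 and 0.42 in RPMI BtzR and 0.35 and 0.29 in RPMI WT, levels from which no order is read. CCL5, another chemokine cut by CD26, fell in the same cells from 73.6 and 55.3 to 19.7 and 34.9. CCL22 rose in ARH77 BtzR from 58.4 and 33.4 to 143 and 149. Called counts were 1 higher and 2 lower in RPMI BtzR, 1 and 1 in AMO1 CfzR, 1 and 0 in ARH77 BtzR, and none in AMO1 BtzR and in the resistant groups of L363, where 4, 1 and 1 had an unadjusted p under 0.05. The 5 intracellular dipeptidyl and prolyl peptidases, which trim short peptides inside the cell, gave 1 call, PREP in AMO1 CfzR. In the other 5 comparisons 0 to 4 of them had an unadjusted p under 0.05.

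Most list genes named in AMO1 CfzR for their difference from AMO1 WT were close to L363 WT. TIMP2, a metalloprotease inhibitor, read 34.9 and 36.3 FPKM in AMO1 CfzR, 0 and 0.01 in AMO1 WT and 45.5 and 46.2 in L363 WT. CD44, an adhesion receptor that ADAM10 sheds, read 0.01 and 0 in AMO1 CfzR, 20.2 and 21.8 in AMO1 WT and 0.03 and 0.03 in L363 WT. HBEGF, a growth factor released by ADAM17, read 7.55 and 6.82, against 0.20 and 0.14 in AMO1 WT and 6.85 and 5.55 in L363 WT. ADA, adenosine deaminase, which binds CD26, read 214 and 226, against 32.2 and 46.7 in AMO1 WT and 211 and 218 in L363 WT. For TSPAN5, PREP, ALOX5AP and GGTLC3 limma gave adjusted p of 0.382 to 1 against L363 WT. PSEN2, TIMP2, CCL5 and GGT7 did differ from L363 WT, by 0.39, -0.36, -0.93 and 0.88 on the log2 scale (limma, adjusted p of 0.0194, 0.0250, 0.0206 and 2.61e-04), short of the fold threshold. Set against L363 WT, the libraries labelled AMO1 CfzR gave 1 call among the ADAM partners, TIMP1, and 1 among the shed substrates, TNFRSF1A, both higher, and none in the other 5 lists, where 0 to 4 genes of a list had an unadjusted p under 0.05.

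Across the 10 group means on the log2(FPKM + 1) scale, GGT1 and ECE1 ran in opposite directions, with Pearson's r of -0.88. The points share 4 lines and are not independent, the ARH77 groups form the low GGT1 end, and the value is a description with no test. ECE1 and LNPEP had an r of 0.68, and the sheddases ADAM10 and ADAM17 an r of 0.42. MME was most like ADAM10 among the members, at 0.56.

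**Figure D5:**
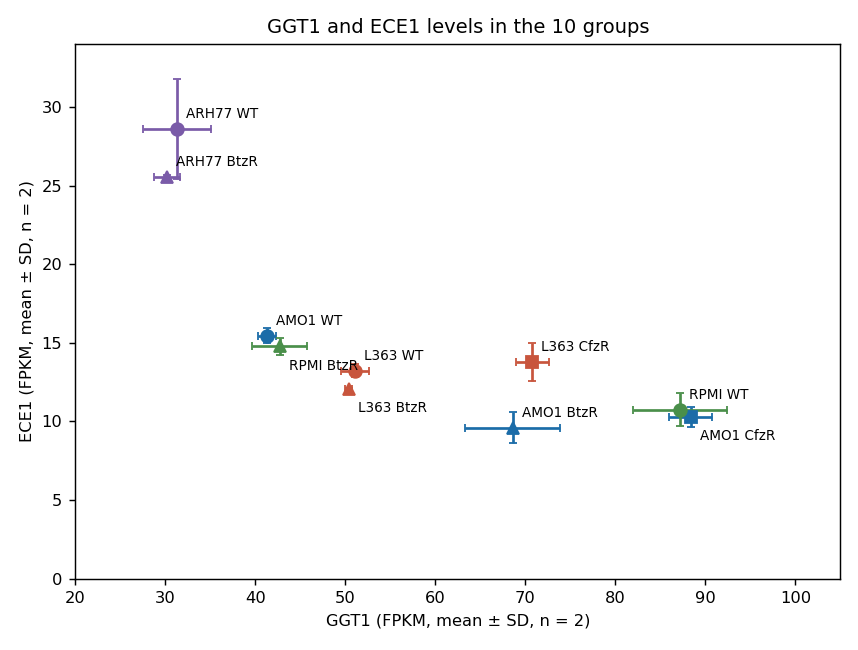
Mean level ± SD (n = 2) of GGT1 (horizontal axis, FPKM, starting at 20) and ECE1 (vertical axis, FPKM) in the 10 groups; colours give the line, circles WT, triangles BtzR and squares CfzR. The ARH77 groups lie at the top left, and AMO1 BtzR, AMO1 CfzR and RPMI WT at the lower right.

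The genes most like each member over the same 10 group means, of all tested, were named by the highest r. MCAM, the adhesion molecule CD146, came first for MME with an r of 0.94, followed by the cell cycle inhibitor CDKN1C at 0.93 and by FAM219B at 0.92. MCAM ran from 0.77 to 23.7 FPKM over the libraries. For GGT1 the first were WFS1, the endoplasmic reticulum protein wolframin, at 0.93, CLN3 at 0.91 and BLVRB at 0.91. The first was SUZ12 for ECE1 at 0.97, PEX13 for LNPEP at 0.96, THAP12 for ADAM10 at 0.99 and RTN4IP1 for ADAM17 at 0.98. With 10 groups from 4 lines and 13089 genes searched, values of this size carry no test.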

How the data were processed

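RNA was extracted from frozen cell pellets and sequenced by BGI on a BGISEQ-500 from 20 libraries, with 2 biological replicates per group per the study's methods. The authors deposited FPKM values for 18305 genes. The submitters' processing notes name HISAT2 2.0.4, Bowtie2 2.2.5 and RSEM 1.2.12 without a role, and the genome build is not given in the sources used here. Members and gene lists were chosen with earlier results of these data known. The members are given by name, the values that picked them are not stated, and all 8 are reported. From each list and comparison, the called gene with the largest rise and the one with the largest fall whose libraries did not overlap those of WT were named.

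Values were tested with limma 3.58.1 (R 4.3.3) on log2(FPKM + 1), with 1 mean per group over all 20 libraries, a mean-variance trend and 10 residual degrees of freedom. Genes averaging 1 FPKM or more in any group, 13089 in all, were tested, with Benjamini-Hochberg adjustment over all of them. Errors are standard errors of the fit. Alternatives changed the pseudocount (0.1 and 0.01), the filter (none and 5 FPKM), the scaling, the trend and the libraries. FPKM is relative to a library's total, so a change in a few abundant genes shifts the others. Promoter windows are from RefSeq, GRCh38.p14.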

Additional observations from a re-analysis of the deposited data

Results flagged for a closer look

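The bortezomib-resistant against WT difference differed between the 4 lines for ECE1 (limma F test of the interaction, adjusted p = 9.89e-05), ADAM17 (adjusted p = 2.66e-04) and LNPEP (adjusted p = 0.00322), a test that 71.1% of all genes passed. ECE1 was lower in AMO1 BtzR and higher in RPMI BtzR, ADAM17 was lower in AMO1 BtzR, and LNPEP was higher in both lines.

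MME and GGT1 had resistant libraries that lay wholly above WT in some lines and wholly below it in others. MME was higher by 1.35 in AMO1 BtzR and by 2.14 in RPMI BtzR, and its difference in L363 BtzR was -0.36, on the log2(FPKM + 1) scale. The L363 WT and L363 BtzR libraries all read below 1 FPKM of MME, where a few fragments decide a value. GGT1 was higher by 0.72 in AMO1 BtzR, and its difference in RPMI BtzR was -1.01. No test of the difference between lines is given for these 2 genes, because they may have been chosen on it.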

How the results depend on the processing

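Of 576 member differences recomputed under the alternatives, 15 reversed their sign. The filter, the trend, the replicate block and the fits of fewer groups left every difference as it was. The sign was thus fixed under those settings, which change only the SE and the adjusted p. In the resistant against WT comparisons, calls are followed here for ECE1, LNPEP, ADAM10 and ADAM17. MME and GGT1 are given as differences with no call. ADAM17 in AMO1 BtzR went from -0.98 past the fold threshold, to -1.05 with a pseudocount of 0.1 or 0.01. It was -1.02 with libraries rescaled to the same sum and -1.01 without AMO1 WT replicate 1. MME in L363 CfzR differed by 1.65 in the main fit and by 2.55 with a pseudocount of 0.01. GGT1 in RPMI BtzR differed by -1.01 in the main fit and by -0.99 with libraries rescaled to the same sum. Without RPMI BtzR replicate 1 it differed by -0.94, and without RPMI WT replicate 1 by -0.95. Between L363 CfzR and L363 BtzR, none of ECE1, LNPEP, ADAM10 and ADAM17 was called in the main fit. Counted over the 6 members in the fit, MME and GGT1 included, the count there went from 1 to 0 in a fit of those libraries only. For ARH77 WT against the mean of the 3 myeloma WT groups, the fewest members passed both thresholds without ARH77 WT replicate 1. MME in AMO1 CfzR went from -0.37 to -1.19 with a pseudocount of 0.1 and to -1.58 with 0.01. All libraries of AMO1 CfzR and AMO1 WT read below 1 FPKM of MME. LNPEP in RPMI BtzR reached 1.01 with a pseudocount of 0.01. A fit without the 2 libraries labelled AMO1 CfzR changed no call of ECE1, LNPEP, ADAM10 or ADAM17 in the resistant against WT comparisons that do not use them.

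Reversed signs concerned small differences. GGT1 in L363 BtzR was 0.0383 with rescaled libraries and 0.0321 with quantile normalization, and GGT1 in ARH77 BtzR 0.0297 with the latter. With a library left out, the ranges were -0.0512 to 0.0111 for GGT1 in L363 BtzR, and in L363 CfzR -0.0315 to 0.134 for ECE1, -0.0316 to 0.166 for LNPEP, -0.0537 to 0.0563 for ADAM10 and -0.0039 to 0.228 for ADAM17. In ARH77 BtzR they were -0.163 to 0.0734 for GGT1, -0.0437 to 0.191 for LNPEP, -0.283 to 0.0285 for ADAM10 and -0.246 to 0.107 for ADAM17. The replicate block changed no call of ECE1, LNPEP, ADAM10 or ADAM17 in the 6 comparisons of resistant with WT cells. ECE1 in AMO1 CfzR against L363 WT passed under it at -0.33 (limma, adjusted p = 0.0406). Without RPMI BtzR replicate 1 ADAM17 in RPMI BtzR passed at 0.39 (limma, adjusted p = 0.0430), and without ARH77 WT replicate 1 ADAM10 in ARH77 BtzR at -0.28 (limma, adjusted p = 0.0400). Deviations of same-numbered libraries correlated at -0.0055 to 0.24 in the 6 comparisons, with 2 pairs in each, so the numbers were not taken as pairs. The cause of these shifts was not tested.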
